A study of Mus musculus with 6 samples.

Results

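The 9 genes described here are the 5 members of the SMYD methyltransferase family (*Smyd1* to *Smyd5*) and 4 genes of the UNC45 and HSP90 chaperones, which help to fold myosin (*Unc45a*, *Unc45b*, *Hsp90aa1* and *Hsp90ab1*). They were chosen by symbol from the 54532 genes of the raw count table, and all 9 were among the 19372 genes with enough counts to be tested. RNA-seq was performed on 6 individual mouse hearts at embryonic day 9.5 (E9.5), of which 3 were *Smyd1-KO*, homozygous for a germline null allele of *Smyd1*, and 3 were wild type (WT) without treatment. Every cell of a *Smyd1-KO* embryo carries the allele, and a whole heart at this stage mixes cardiomyocytes with endocardial, epicardial and blood cells. The comparison asks how the transcripts of the deleted gene's own family and of these chaperones stand in *Smyd1-KO* hearts.

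SMYD proteins are lysine methyltransferases in which a zinc-binding MYND domain splits the catalytic SET domain. SMYD1 is found in heart and skeletal muscle, where it methylates histone H3, recruits histone deacetylases and also binds myosin in the sarcomere, while the other family members are expressed more widely. Myosin heads fold with the help of UNC45, a chaperone that binds myosin directly and recruits HSP90, and SMYD1 has been found in complexes with UNC45B and HSP90 in muscle.

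The start regions of *Smyd1*, *Unc45b* and *Unc45a* are shown because the results turn on these genes: *Smyd1* and *Unc45b* are the muscle-restricted members, and *Unc45a* is the general paralog of *Unc45b*. Each is the RefSeq window (build GRCm38.p6) of 250 bases before and 50 bases after the gene start that RefSeq gives, written in the direction of transcription, at chr6:71262232-71262531 (reverse strand), chr11:82911003-82911302 (forward strand) and chr7:80340170-80340469 (reverse strand). Capitals mark the E-box CANNTG, the site of basic helix-loop-helix factors, and the letters TATAG where they begin 20 to 40 bases before the start.
*Smyd1*: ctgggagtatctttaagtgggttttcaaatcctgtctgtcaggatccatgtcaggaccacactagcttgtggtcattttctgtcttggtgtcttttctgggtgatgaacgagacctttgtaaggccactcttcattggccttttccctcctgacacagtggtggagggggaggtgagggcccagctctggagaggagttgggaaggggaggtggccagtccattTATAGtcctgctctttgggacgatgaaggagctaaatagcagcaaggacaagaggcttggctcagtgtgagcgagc
*Unc45b*: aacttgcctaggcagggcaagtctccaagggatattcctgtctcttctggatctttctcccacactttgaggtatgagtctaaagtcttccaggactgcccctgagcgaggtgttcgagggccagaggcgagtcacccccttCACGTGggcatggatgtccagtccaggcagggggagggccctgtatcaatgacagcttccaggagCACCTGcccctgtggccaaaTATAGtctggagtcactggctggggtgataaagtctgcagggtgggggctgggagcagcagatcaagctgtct
*Unc45a*: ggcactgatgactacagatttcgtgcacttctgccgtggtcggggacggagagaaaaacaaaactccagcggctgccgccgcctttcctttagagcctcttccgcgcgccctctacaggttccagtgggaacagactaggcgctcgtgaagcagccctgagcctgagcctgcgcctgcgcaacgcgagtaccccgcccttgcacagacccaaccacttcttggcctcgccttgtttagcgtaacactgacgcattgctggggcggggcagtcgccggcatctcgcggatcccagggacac
Both muscle genes hold TATAG near the place where a TATA box lies, beginning 26 bases before the start in *Smyd1* and 23 bases before it in *Unc45b*. Windows for 6 of the 9 genes were matched in RefSeq, and the other 4 did not hold these letters there, against 0.861% of all 32851 windows that did. That *Smyd1* start, 71262281, is also the start of a GENCODE transcript, but 2 of the 6 GENCODE transcripts of *Smyd1* begin further upstream, the outermost at 71322233, and 1 transcript each of *Unc45a* and *Unc45b* does so too. The positions given here hold for the RefSeq starts only. The TATAG search ran along the printed strand only and was chosen after the sequences had been read. E-boxes, which read the same on both strands, were present in 72.3% of all windows, and the *Unc45b* window holds 2 while the *Smyd1* and *Unc45a* windows hold 0. *Smyd4* had 3 E-boxes, *Smyd5* had 1 and *Smyd2* had 0. The CArG box of serum response factor (CC, then 6 letters that are A or T, then GG), searched on both strands, was in 1.63% of windows, and the MEF2 site in 3.19%. Neither was found in the window of any of the 6 genes, and the heat shock element letters TTCNNGAA, present in 8.52% of all windows, were not found there either. A match describes letters in a window only.

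Library totals ranged from 48627825 to 64217529 gene counts, and a single count for the 9 genes ranged from 591 (*Smyd3*) to 353216 (*Hsp90ab1*), so that counting error was at most 4.11% of a value. Levels are given as CPM (counts scaled to library size after TMM normalization), and as CPM per kb of merged exon where genes are compared with each other. The label of heart tissue was checked with 11 cardiomyocyte markers (such as *Tnnt2*, *Actc1* and *Nkx2-5*), whose summed level was 9290, 19100 and 19300 CPM in mutant (*Smyd1-KO*) hearts 1 to 3, compared with 21100, 19500 and 12500 CPM in WT hearts 1 to 3. The sum was lowest in *Smyd1-KO* heart 1, with WT heart 3 next, and *Smyd1* and *Unc45b* are given with and without *Smyd1-KO* heart 1. The skeletal muscle regulators *Myod1* and *Myog* and the leukocyte genes *Ptprc* and *Adgre1* did not pass the filter on low counts. *Myog* had 127 counts in *Smyd1-KO* heart 1, against 0 and 0 in *Smyd1-KO* hearts 2 and 3 and 0, 1 and 3 in the WT hearts. The source of these counts was not tested. *Ckm*, *Acta1*, *Csf1r* and *Cd68* of the same lists passed the filter, with log2 fold changes of 0.74, 0.50, 0.48 and -0.62, and edgeR called 0 of them. The 7 erythroid markers tested summed to 23.3, 267 and 151 CPM in the *Smyd1-KO* hearts, compared with 715, 935 and 900 CPM in WT hearts. All 7 were lower without overlap, as were 15.5% of all tested genes. edgeR called 2 of the 7 as lower, against 1.42% of all tested genes, and DESeq2 called 5, against 9.29% in either direction. The 4 epicardial markers summed to 105, 188 and 244 CPM against 113, 93.9 and 94.4 CPM, with 4 positive fold changes. Of these, 2 were at an unadjusted *P* under 0.05, against 13.1% of all tested genes. edgeR called 0 and DESeq2 called 2 of the 4. The part of these cell-type differences in the results that follow was not tested, and in whole hearts fewer cells of a type and less RNA per cell cannot be told apart.

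Of the 9 genes, *Smyd3* was upregulated and *Unc45a* downregulated in *Smyd1-KO* hearts by the criteria used (edgeR adjusted *P* under 0.05, with a log2 fold change of 0.5 or more in either direction). That is 1 of 9 in each direction, where edgeR called 2.86% of all tested genes as higher, 1.42% as lower and 4.28% in all. DESeq2 called 3 of the 9, adding *Smyd1*, against 9.29% of all genes. *Smyd1* itself and *Unc45b*, the UNC45 of muscle, did not pass in edgeR. The genotypes did not overlap in 5 of the 9 genes, 2 higher (*Smyd3*, *Hsp90ab1*) and 3 lower (*Smyd1*, *Smyd5*, *Unc45a*) in *Smyd1-KO* hearts, where 31.3% of all tested genes did not overlap (15.9% higher and 15.5% lower). An unadjusted *P* under 0.05 was reached by 4 of the 9, against 25.1% of all genes (13.1% higher and 11.9% lower). The median log2 fold change of the 9 genes was -0.13, and that of all tested genes was 0.00.

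**Figure D1:**
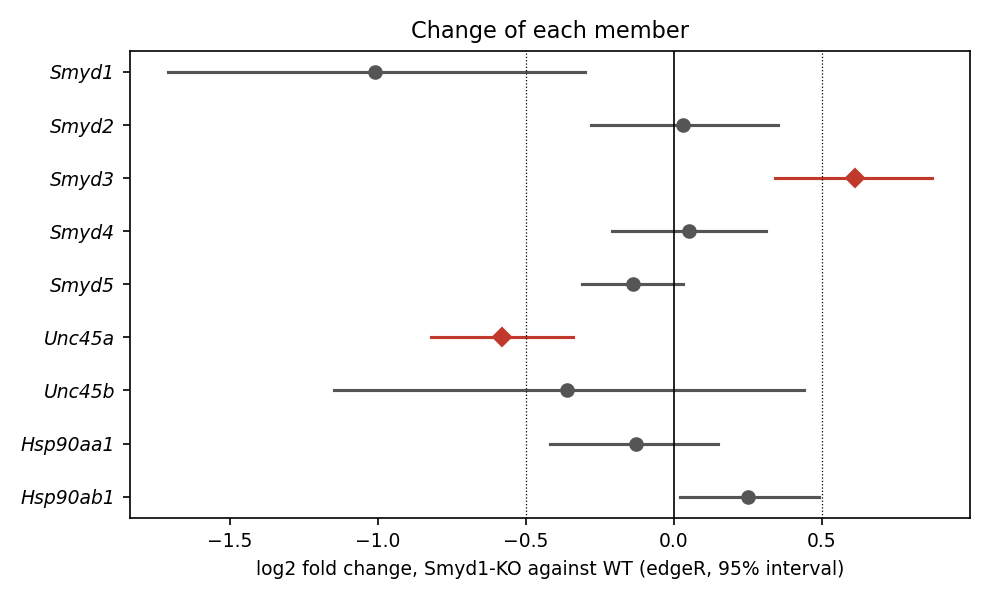
Log2 fold change of each of the 9 genes in *Smyd1-KO* against WT hearts (x axis), with its 95% interval from edgeR, n=3 hearts per genotype. Red diamonds are the differentially expressed genes (*Smyd3* 0.61, *Unc45a* -0.58), dotted lines stand at the fold limit of 0.5 in each direction, and the widest intervals are those of *Smyd1* (-1.71 to -0.30) and *Unc45b* (-1.15 to 0.44).

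*Smyd1* is the deleted gene (ENSMUSG00000055027), annotated in mm10 at 71213940 to 71322233 of chromosome 6 (reverse strand), a span that includes the transcripts starting upstream of the printed window, with 4.55 kb of merged exon. It had 4929, 13128 and 11763 counts in *Smyd1-KO* hearts 1 to 3, compared with 24686, 24052 and 17968 counts in WT hearts 1 to 3. Reads on the gene thus remained in every *Smyd1-KO* heart. In CPM the *Smyd1-KO* hearts held 176 ± 65.5 and the WT hearts 354 ± 75.3 (SD, n=3), a log2 fold change of -1.01 (95% interval -1.71 to -0.30; edgeR adjusted *P*=0.0973). Every *Smyd1-KO* heart lay below every WT heart, yet *Smyd1* did not pass the adjusted threshold in edgeR. DESeq2 gave -1.0 with an adjusted *P* of 0.00534, which passes. Without *Smyd1-KO* heart 1 the log2 fold change was -0.73 (edgeR adjusted *P*=0.0586). Counts over the whole gene do not separate the exons missing from the allele, which were not analysed here.

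*Smyd1* was lower relative to the cardiomyocyte markers too, and here *Smyd1-KO* heart 1 was not apart. The geometric mean of the 11 markers was 502, 1070 and 1080 CPM in the *Smyd1-KO* hearts and 1170, 1090 and 697 CPM in the WT hearts, so 2 of the *Smyd1-KO* hearts held marker transcript within the WT range. The log2 ratio of *Smyd1* to this mean was -2.31, -2.26 and -2.38 in the *Smyd1-KO* hearts against -1.50, -1.52 and -1.37 in the WT hearts. The difference of -0.85, or 0.553 times the WT ratio, lay well beyond the spread within either genotype, whose SDs were 0.0608 and 0.0821. With 3 hearts against 3 an exact permutation test (two-sided) cannot go below *P*=0.1, the value it gave (0.125 after Benjamini-Hochberg adjustment over the 5 ratios tested). Leaving out any heart kept the difference between -0.88 and -0.81. Taken against each marker singly, *Smyd1* was lower without overlap for 9 of the 11, and its ratio overlapped between genotypes for *Myh6* and *Ttn*, with differences from -1.61 (*Myh7*) to -0.31 (*Myh6*).

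**Figure D2:**
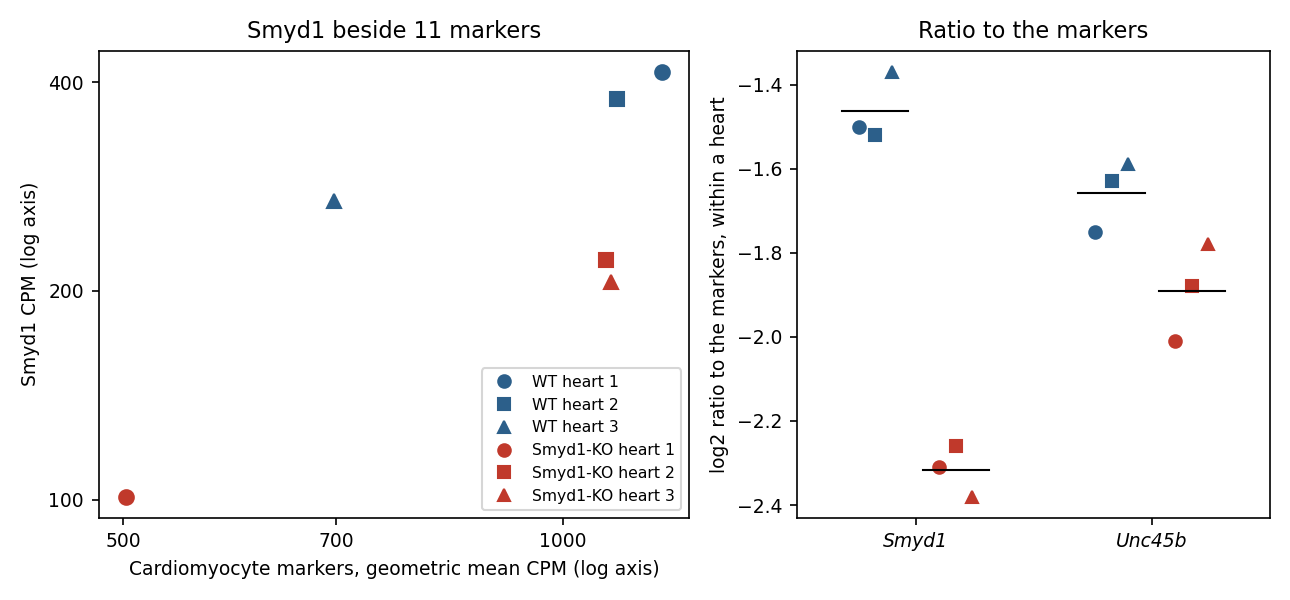
Left, *Smyd1* CPM (log axis) against the geometric mean CPM of the 11 cardiomyocyte markers (log axis) in each of the 6 hearts. Right, the log2 ratio of *Smyd1* or *Unc45b* to that mean within a heart, with a bar at each genotype's mean: for *Smyd1* the *Smyd1-KO* hearts lie between -2.38 and -2.26 and the WT hearts between -1.52 and -1.37, and for *Unc45b* the gap is narrower (-2.01 to -1.78 against -1.75 to -1.59).

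Among the other SMYD genes, the only difference that passed the test was a rise in *Smyd3*. SMYD3 methylates lysines on histones and on cytoplasmic kinases of the MAP kinase pathway, and the gene (ENSMUSG00000055067) is annotated at 178951960 to 179518041 of chromosome 1 (reverse strand). Its counts were 723, 831 and 841 in the *Smyd1-KO* hearts and 600, 591 and 618 in the WT hearts. In CPM these were 14.9, 14.1 and 14.7 against 10.1, 9.31 and 9.28. All *Smyd1-KO* hearts were higher, and within a genotype the hearts differed little, with coefficients of variation of 2.99% and 4.7%. The fold change was 1.52 (95% interval 1.27 to 1.83), or 0.61 on the log2 scale (SE 0.113, edgeR adjusted *P*=0.0303). DESeq2 gave an adjusted *P* of 6.3e-05. The call needed nearly all of the hearts, since the adjusted *P* from edgeR was 0.107 without *Smyd1-KO* heart 2, 0.0929 without *Smyd1-KO* heart 3, and 0.0534, 0.145 and 0.12 without WT heart 1, 2 or 3, while the log2 fold change stayed between 0.59 and 0.65. Without *Smyd1-KO* heart 1 it was 0.59 and passed (edgeR adjusted *P*=0.0401). Per kb of merged exon, *Smyd3* remained the lowest of the 9 genes in both genotypes, at 1.58 ± 0.0475 in *Smyd1-KO* and 1.04 ± 0.0489 CPM per kb in WT hearts. That rank depends on its merged exon length of 9.18 kb, against 4.33 kb for *Smyd4*. In CPM, *Smyd3* averaged 14.6 and *Smyd4* 12.7 in *Smyd1-KO* hearts, and 9.55 and 12.2 in WT hearts.

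*Smyd2*, *Smyd4* and *Smyd5* did not pass the test. SMYD2 methylates p53 and HSP90 and has been placed at the sarcomere with it. *Smyd2* (chromosome 1, 189880492 to 189922363) reached 49.6, 60.6 and 59.9 CPM in mutant hearts 1 to 3, compared with 64.3, 55.0 and 47.1 CPM in WT hearts. The ranges overlapped, with a log2 fold change of 0.03 (95% interval -0.28 to 0.35; edgeR adjusted *P*=0.906) whose sign turned with 1 heart, to -0.02 without *Smyd1-KO* heart 2, -0.01 without *Smyd1-KO* heart 3 and -0.07 without WT heart 3. An antisense gene, *Gm37422*, shares 814 exon bases with *Smyd2* (30% of its length) and has counts equal to 7.65 to 13.3% of those of *Smyd2*. Those counts were 187, 274 and 292 in the *Smyd1-KO* hearts and 371, 421 and 416 in the WT hearts. The strand setting of the counting is not given in the sources used here, and the part of *Gm37422* in the *Smyd2* counts was not tested.

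*Smyd4*, whose protein is the most distant of the family and carries additional protein-binding repeats, varied little between hearts (chromosome 11, 75348433 to 75405705). It reached 12.7, 12.9 and 12.5 CPM in mutant hearts 1 to 3, compared with 11.8, 12.9 and 12.0 CPM in WT hearts, a log2 difference of 0.05 (95% interval -0.21 to 0.31; edgeR adjusted *P*=0.801). *Smyd5*, which encodes a methyltransferase of histone and ribosomal protein lysines, lies on chromosome 6 like *Smyd1* (85431989 to 85446435). It was measured at 99.7, 91.3 and 90 CPM against 105, 99.8 and 105 CPM. All *Smyd1-KO* hearts were below all WT hearts by a narrow margin, and the log2 fold change of -0.14 (95% interval -0.31 to 0.03) did not pass (edgeR adjusted *P*=0.292).

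*Smyd1* made up a smaller share of the family's transcript in *Smyd1-KO* hearts. Summed over the 5 genes, the SMYD level was 62.2, 91.3 and 87.3 CPM per kb in the *Smyd1-KO* hearts and 137, 125 and 98.3 CPM per kb in the WT hearts. *Smyd1* made up 35.9%, 53.5% and 52.0% of that sum in the *Smyd1-KO* hearts and 66.7%, 66.9% and 60.4% in the WT hearts. *Smyd2* held 26.4% ± 2.64 in *Smyd1-KO* and 17.1% ± 0.724 in WT hearts, and *Smyd5* held 20.7% ± 5.81 and 15.0% ± 2.77 (SD, n=3). *Smyd4* and *Smyd3* stayed minor, at 3.76% and 2.04% on average in *Smyd1-KO* hearts. These shares add to a whole, so the share of the others rises where *Smyd1* is lower even at a constant level. In counts, the ratio of *Smyd1* to the other 4 SMYD genes together was 0.573, 1.24 and 1.16 in the *Smyd1-KO* hearts and 2.17, 2.14 and 1.56 in the WT hearts, 0.485 times the WT ratio without overlap (two-sided exact permutation *P*=0.1, the lowest value available, adjusted 0.125).

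**Figure D3:**
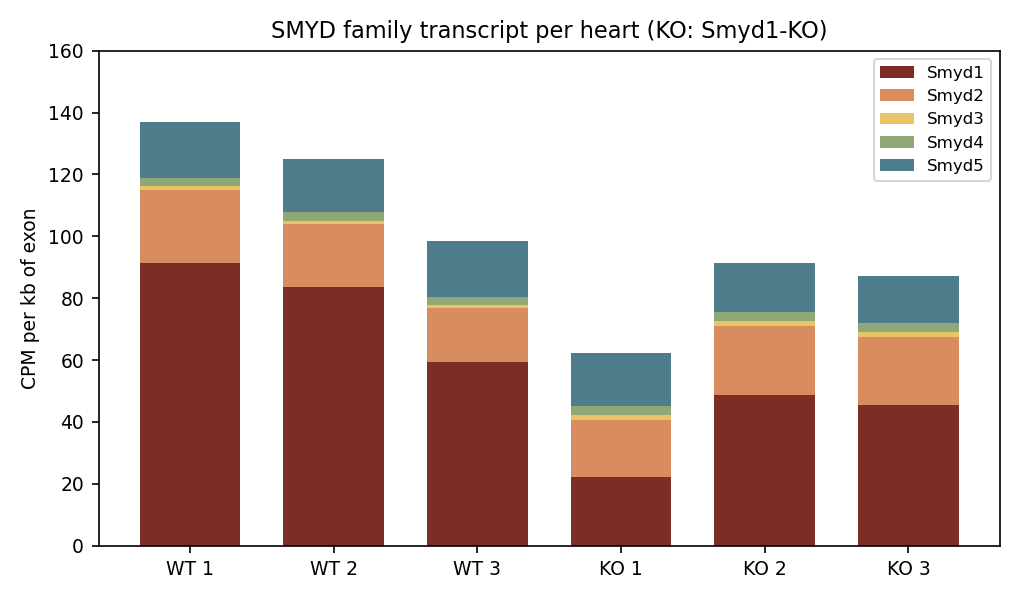
CPM per kb of exon (y axis) of the 5 SMYD genes stacked for each of the 6 hearts (KO, *Smyd1-KO*). The *Smyd1* segment is between 59.3 and 91.1 high in the WT hearts and between 22.3 and 48.8 in the *Smyd1-KO* hearts, and the other segments differ less in height.

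Of the UNC45 paralogs, *Unc45a* was downregulated and *Unc45b* did not pass, and their ratio did not separate the genotypes. UNC45A is the UNC45 of most cell types and acts on non-muscle myosin, and UNC45B is restricted to heart and skeletal muscle. *Unc45a* (ENSMUSG00000030533, chromosome 7, 80325292 to 80341005, reverse strand) had 1906, 2068 and 2018 counts in the *Smyd1-KO* hearts and 2899, 3835 and 3645 counts in the WT hearts. In CPM it was measured at 39.2, 35.0 and 35.4 against 48.7, 60.4 and 54.7, and every *Smyd1-KO* heart was below every WT heart. The level was 0.669 times that of WT (95% interval 0.566 to 0.79), a log2 fold change of -0.58 (SE 0.103, edgeR adjusted *P*=0.026; DESeq2 adjusted *P*=0.000382). The adjusted *P* from edgeR was 0.0984 without *Smyd1-KO* heart 2, 0.0786 without *Smyd1-KO* heart 3, 0.117 without WT heart 2 and 0.0997 without WT heart 3, with a log2 fold change between -0.65 and -0.50 whichever heart was left out. Without *Smyd1-KO* heart 1, the one with few muscle transcripts, *Unc45a* was at -0.63 and passed (edgeR adjusted *P*=0.0215).

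*Unc45b* (ENSMUSG00000018845, chromosome 11, 82910550 to 82943403, forward strand) did not pass. It had 6045, 17124 and 17847 counts in the *Smyd1-KO* hearts and 20689, 22312 and 15404 counts in the WT hearts. The corresponding CPM were 124, 290 and 313 against 347, 351 and 231. *Smyd1-KO* heart 1 was far below the rest, and the other 2 *Smyd1-KO* hearts lay inside the WT range. The log2 fold change was -0.36 with a wide interval (95% interval -1.15 to 0.44; edgeR adjusted *P*=0.556), and it was -0.04 without *Smyd1-KO* heart 1 (edgeR adjusted *P*=0.911). Relative to the cardiomyocyte markers *Unc45b* was at 0.851 times the WT ratio, with log2 ratios of -2.01, -1.88 and -1.78 against -1.75, -1.63 and -1.59 (exact permutation test, two-sided, *P*=0.1, adjusted 0.125). That gap was narrow, and against single markers the ratio separated the genotypes for only 3 of the 11 (*Myl7*, *Myh7* and *Nkx2-5*).

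*Unc45b* was still the dominant UNC45 transcript in all 6 hearts, with 78.1%, 90.3% and 90.9% of the summed CPM per kb in the *Smyd1-KO* hearts and 88.9%, 86.7% and 82.6% in the WT hearts. The log2 count ratio of *Unc45b* to *Unc45a* was 1.67, 3.05 and 3.14 against 2.84, 2.54 and 2.08, which overlap, and the difference of 0.13 (exact permutation test, two-sided, *P*=0.8) turned negative when 1 of 3 hearts was left out: -0.08 without *Smyd1-KO* heart 2, -0.13 without *Smyd1-KO* heart 3 and -0.07 without WT heart 3. The transcripts of the paralogs share 66.2% of bases over 2374 aligned bases.

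*Smyd1* and *Unc45b*, whose proteins meet on myosin, were at similar levels in WT hearts. Per kb of exon the *Smyd1* to *Unc45b* ratio was 1.18, 1.07 and 1.15 in the WT hearts and 0.806, 0.758 and 0.651 in the *Smyd1-KO* hearts. *Smyd1* was thus the higher of the pair in each WT heart and the lower in each *Smyd1-KO* heart, a difference of -0.62 on the log2 scale. This ratio was chosen after its values had been seen and was not tested.

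The HSP90 genes were by far the most abundant of the 9. HSP90AB1 is the constitutive cytosolic HSP90 and HSP90AA1 the stress-inducible isoform. *Hsp90ab1* (chromosome 17, 45567775 to 45573271) reached 6170, 5970 and 5410 CPM in mutant hearts 1 to 3, compared with 5040, 4740 and 4980 CPM in WT hearts. Every *Smyd1-KO* heart was higher, by a log2 fold change of 0.25 (95% interval 0.02 to 0.49), but the difference did not pass the adjusted threshold (edgeR adjusted *P*=0.174; DESeq2 adjusted *P*=0.101). It took 0.577% ± 0.0446 of all counts in *Smyd1-KO* and 0.498% ± 0.0174 in WT hearts.

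*Hsp90aa1* (chromosome 12, 110690605 to 110702728) reached 1680, 1580 and 1410 CPM in mutant hearts 1 to 3, compared with 1740, 1510 and 1880 CPM in WT hearts. The ranges overlapped, and the log2 fold change was -0.13 (95% interval -0.42 to 0.15; edgeR adjusted *P*=0.528). Processed pseudogenes such as *Gm12346*, which matches 2255 bases of *Hsp90aa1* at 99.5% identity, had counts equal to 2.4 to 2.9% of those of *Hsp90aa1* together. How reads that match both the gene and such a near-identical copy were counted is not given. For *Hsp90ab1* the share on such copies was 0.118 to 0.147%.

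The balance of the HSP90 isoforms differed between genotypes without overlap. The *Hsp90aa1* to *Hsp90ab1* count ratio was 0.272, 0.264 and 0.26 in the *Smyd1-KO* hearts and 0.344, 0.318 and 0.378 in the WT hearts, 0.767 times the WT ratio. The exact permutation test (two-sided) gave *P*=0.1, the smallest possible (adjusted 0.125), and leaving out any heart kept the log2 difference between -0.44 and -0.32. On the scale of CPM per kb, *Hsp90ab1* made up 82.8%, 83.2% and 83.4% of HSP90 transcript in the *Smyd1-KO* hearts against 79.2%, 80.5% and 77.6% in the WT hearts.

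Ordered by CPM per kb, the 9 genes spanned a wide range in WT hearts. *Hsp90ab1* came first at 1640 ± 53.2 and *Hsp90aa1* next at 434 ± 47.7 CPM per kb (SD, n=3). *Smyd1* (77.9 ± 16.6) and *Unc45b* (69.0 ± 15.2) followed with overlapping ranges, as did *Smyd2* (20.4 ± 3.17) and *Smyd5* (17.6 ± 0.493). *Unc45a* (10.8 ± 1.16), *Smyd4* (2.82 ± 0.136) and *Smyd3* (1.04 ± 0.0489) closed the order without overlap between neighbours. In *Smyd1-KO* hearts *Unc45b* (53.9 ± 22.9) stood above *Smyd1* (38.8 ± 14.4), with overlapping ranges, and the rest of the order was the same. Exons of every annotated isoform were counted in the length, so a gene with long rare isoforms has its level understated. *Smyd3* had the longest merged exon of the 9 genes, at 9.18 kb.

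**Figure D4:**
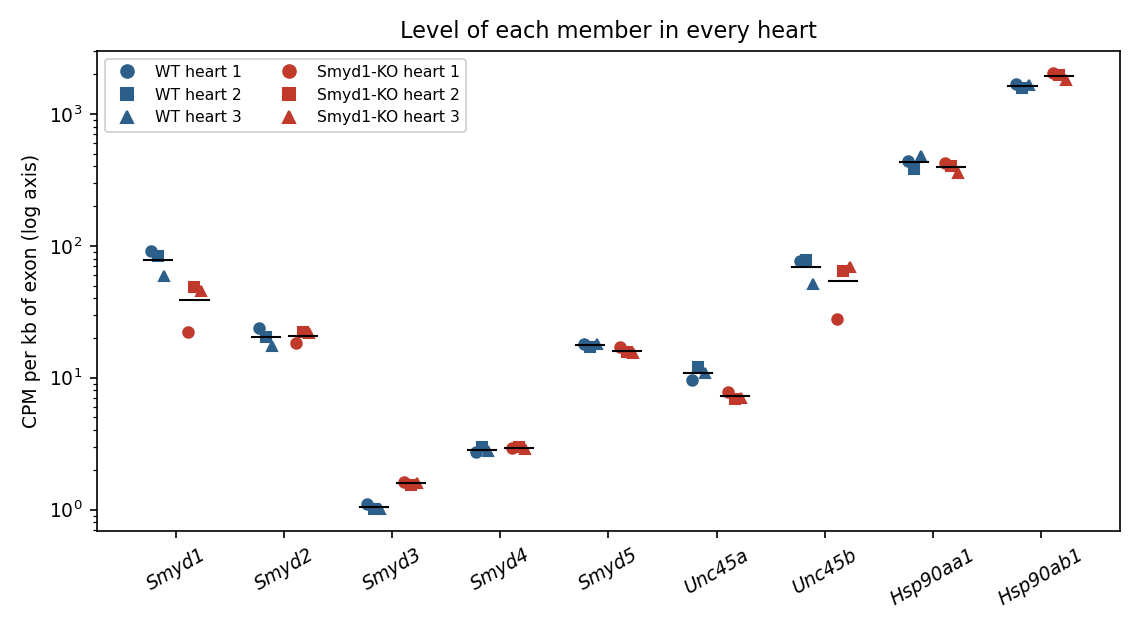
CPM per kb of exon (y axis, log scale) of each of the 9 genes in the 3 WT (blue) and 3 *Smyd1-KO* (red) hearts, with a bar at each genotype's mean. The *Smyd1-KO* points lie apart from the WT points for *Smyd1*, *Smyd3*, *Smyd5*, *Unc45a* and *Hsp90ab1*, and *Smyd1-KO* heart 1 is the lowest point for *Smyd1* (22.3) and *Unc45b* (27.7).

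Genes whose pattern over the 6 hearts was most like that of *Smyd1* were sought by the root mean square difference of mean-centred log2 CPM among 13049 genes. The nearest were *Srpk3* (0.107), a muscle protein kinase, *Nrap* (0.129), a scaffold of the growing myofibril, *Pmepa1* (0.136), *Acap1* (0.144) and *Hdc* (0.147), the enzyme that makes histamine. *Srpk3* reached 5.59, 13.8 and 13.4 CPM in mutant hearts 1 to 3, compared with 23.7, 21.7 and 14 CPM in WT hearts, lowest in *Smyd1-KO* heart 1 as for *Smyd1*. *Myh6*, the alpha myosin heavy chain, ranked 25 (0.213) and *Unc45b* ranked 122 (0.327). *Myh7*, the beta myosin heavy chain, ranked 10365 (0.814), and *Smyd3*, which moved the other way, ranked 11812 (0.931), further from *Smyd1* than *Myh7*. All of these patterns rest on the same 6 libraries.

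No tested gene of the myosin heavy chains, whose heads UNC45 helps to fold, or of the light chains passed in edgeR with all hearts included. Of 21 genes, the myosin heavy and light chains together with myosin-binding protein C (*Mybpc3*) and the light chain kinase *Mylk3*, 16 were tested. The skeletal heavy chains *Myh1*, *Myh2*, *Myh3*, *Myh4* and *Myh8* were under the filter. edgeR called 0 and DESeq2 called 1, against 9.29% of all genes. At an unadjusted *P* under 0.05, 2 were lower, against 11.9% of all tested genes. *Myh6* reached 1410, 2620 and 2840 CPM in mutant hearts 1 to 3, compared with 3730, 4590 and 2930 CPM in WT hearts, lower in every *Smyd1-KO* heart (log2 fold change -0.71, edgeR adjusted *P*=0.172). *Myh7* was measured at 1520, 3610 and 3430 CPM against 1980, 2260 and 1340 CPM, with overlap (0.62, edgeR adjusted *P*=0.306). The overlap came from *Smyd1-KO* heart 1, while *Smyd1-KO* hearts 2 and 3 lay above every WT heart. *Myh11*, the smooth muscle heavy chain, had the smallest *P* of the list, at 7.34 ± 0.661 CPM (*Smyd1-KO*) against 14 ± 3.96 CPM (WT) (log2 fold change -0.93, edgeR adjusted *P*=0.0594; DESeq2 adjusted *P*=0.00126). With 1 heart left out, the log2 fold change ran from 0.41 to 0.92 for *Myh7* and from -0.89 to -0.46 for *Myh6*. *Myh7*, *Myh11* and the light chain gene *Myl1* were each called by edgeR in 1 of these 6 fits. The median log2 fold change of the list was 0.11.

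The co-chaperones of HSP90 were more often lower than higher, but none passed the test. Of 24 genes (HSP90 paralogs and co-chaperones, all tested), 18 had a negative and 6 a positive fold change, against 9731 negative and 9641 positive of all tested genes, and the median was -0.15. edgeR called 0 and DESeq2 called 0, and 5 were lower and 0 higher at an unadjusted *P* under 0.05, where 11.9% of all tested genes were lower and 13.1% higher at that level. The smallest *P* was that of *Cdc37l1*, a relative of the kinase co-chaperone CDC37, at 42.8, 49.2 and 44.7 CPM against 54.0, 66.6 and 63.1 CPM (log2 fold change -0.43, edgeR adjusted *P*=0.0596). *Ahsa1*, which stimulates the ATPase of HSP90, was at 166, 167 and 155 CPM against 225, 190 and 197 CPM (-0.33, edgeR adjusted *P*=0.0812). Both were lower in every *Smyd1-KO* heart. *Stip1*, which joins HSP70 to HSP90, was at -0.14, *Cdc37* at -0.03 and *Itgb1bp2*, the muscle co-chaperone melusin, at -0.07 on the log2 scale (edgeR adjusted *P* of 0.37, 0.867 and 0.906). The endoplasmic reticulum HSP90 *Hsp90b1* and the mitochondrial HSP90 *Trap1* were both at 0.15 (edgeR adjusted *P* of 0.369 and 0.309).

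In the HSP70 system, *Hsph1* was downregulated. HSPH1 (HSP110) is a nucleotide exchange factor of HSP70, and its gene reached 235, 225 and 195 CPM in mutant hearts 1 to 3, compared with 320, 285 and 379 CPM in WT hearts. Every *Smyd1-KO* heart was lower (log2 fold change -0.59, SE 0.129, edgeR adjusted *P*=0.0462; DESeq2 adjusted *P*=0.00233), and *Hsph1* was called without *Smyd1-KO* heart 1 (-0.64, adjusted *P*=0.0421) but not without any other heart (-0.68 to -0.47, adjusted *P* of 0.0914 to 0.141 with edgeR). Of the 23 HSP70, HSP40 and heat shock factor genes, edgeR called 1, where 4.28% of all tested genes were called. DESeq2 called 2 higher and 1 lower, against 9.29% of all genes in either direction. At an unadjusted *P* under 0.05, 6 were lower and 2 higher, against 11.9% and 13.1% of all tested genes, and the median was -0.08. *Hspa4*, of the same HSP110 family, was at -0.46 (edgeR adjusted *P*=0.0523) and the HSP40 gene *Dnaja1* at -0.36 (edgeR adjusted *P*=0.0752). The constitutive HSP70 *Hspa8* was at 0.17 and the heat shock regulator *Hsf1* at -0.22 (edgeR adjusted *P* of 0.46 and 0.133). *Hspa1b*, a heat-inducible HSP70, was at 7.86, 16.1 and 12.9 CPM against 6.88, 4.58 and 7.75 CPM (0.94, edgeR adjusted *P*=0.113, DESeq2 adjusted *P*=0.0135). Its near-identical copy *Hspa1a* was at 1.03 (edgeR adjusted *P*=0.135, DESeq2 adjusted *P*=0.0276). How reads that match both genes were counted is not given. *Hspa1b* and *Hspa1a* passed in DESeq2 but not in edgeR.

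The remaining folding machines did not pass. Of 14 genes of the TRiC chaperonin and prefoldin, which fold actin and tubulin, edgeR called 0 and DESeq2 called 0. At an unadjusted *P* under 0.05, 3 were higher, against 13.1% of all tested genes. The median was 0.01, and the smallest *P* was in *Pfdn5* (0.27, edgeR adjusted *P*=0.113). Of 7 small heat shock proteins, edgeR called 0 and DESeq2 called 1, against 9.29% of all genes. At an unadjusted *P* under 0.05, 1 was higher, against 13.1% of all tested genes. That gene was *Hspb6*, at 2.49, 6.0 and 5.87 CPM in the *Smyd1-KO* hearts and at 1.78, 2.32 and 2.49 CPM in the WT hearts (log2 fold change 1.12, edgeR adjusted *P*=0.107).

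Genes that encode partners of SMYD1 or are otherwise linked to it did not pass either. Whether each acts upstream or downstream of SMYD1 was not tested. Of 13 genes, edgeR called 0 and DESeq2 called 0, and the median was -0.03. At an unadjusted *P* under 0.05, 2 were lower, against 11.9% of all tested genes. *Myocd*, the muscle coactivator of serum response factor, was at 37.8 ± 6.67 CPM (*Smyd1-KO*) against 53.4 ± 10.7 CPM (WT) (log2 fold change -0.50, edgeR adjusted *P*=0.14), and had the smallest *P*. *Hand2*, a transcription factor of the right ventricle, was at 80.2 ± 24.5 against 118 ± 19.2 CPM (-0.55, edgeR adjusted *P*=0.19), and *Mef2c*, an activator of *Smyd1*, was at -0.37 (edgeR adjusted *P*=0.233). *Ttn*, which encodes the sarcomere spring titin, was at -0.59 and *Naca*, counted over all its isoforms, of which the muscle isoform skNAC is the SMYD1 partner, at 0.18 (edgeR adjusted *P* of 0.319 and 0.243).

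Among 29 other SET-domain methyltransferases, 1 was upregulated and 2 were downregulated, where 2.86% and 1.42% of all tested genes were. *Ezh1*, a catalytic subunit of Polycomb repressive complex 2, reached 34.7, 33.3 and 33.9 CPM in mutant hearts 1 to 3, compared with 19.4, 20.2 and 20.9 CPM in WT hearts. The groups were far apart relative to their spread (log2 fold change 0.75, SE 0.0842, edgeR adjusted *P*=0.00664), and *Ezh1* was called whichever heart was left out except WT heart 2 (0.75, edgeR adjusted *P*=0.0522). *Setd1b*, a histone H3 lysine methyltransferase of a COMPASS complex, was at 47.6, 39.8 and 43.8 CPM against 57.8, 85.4 and 81.2 CPM (-0.77, edgeR adjusted *P*=0.0363), and *Setd6*, which methylates the NF-kappaB subunit RELA, at 16.5, 14.6 and 14.9 CPM against 23.8, 23.8 and 21.3 CPM (-0.58, edgeR adjusted *P*=0.0288). *Setd1b* stayed called without *Smyd1-KO* heart 1 or WT heart 1 but not without another heart (-0.77 to -0.67, edgeR adjusted *P* of 0.0898 to 0.144), and *Setd6* stayed called without *Smyd1-KO* heart 1 but not without another heart (-0.63 to -0.55, edgeR adjusted *P* of 0.071 to 0.139). *Setd5* was at 0.43 with an edgeR adjusted *P* of 0.0356 and stayed under the fold limit. DESeq2 called 1 higher and 2 lower of the 29, against 9.29% of all genes in either direction. Over the 29 genes, 8 were lower and 3 higher at an unadjusted *P* under 0.05, against 11.9% and 13.1% of all tested genes, and the median was -0.12.

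**Figure D5:**
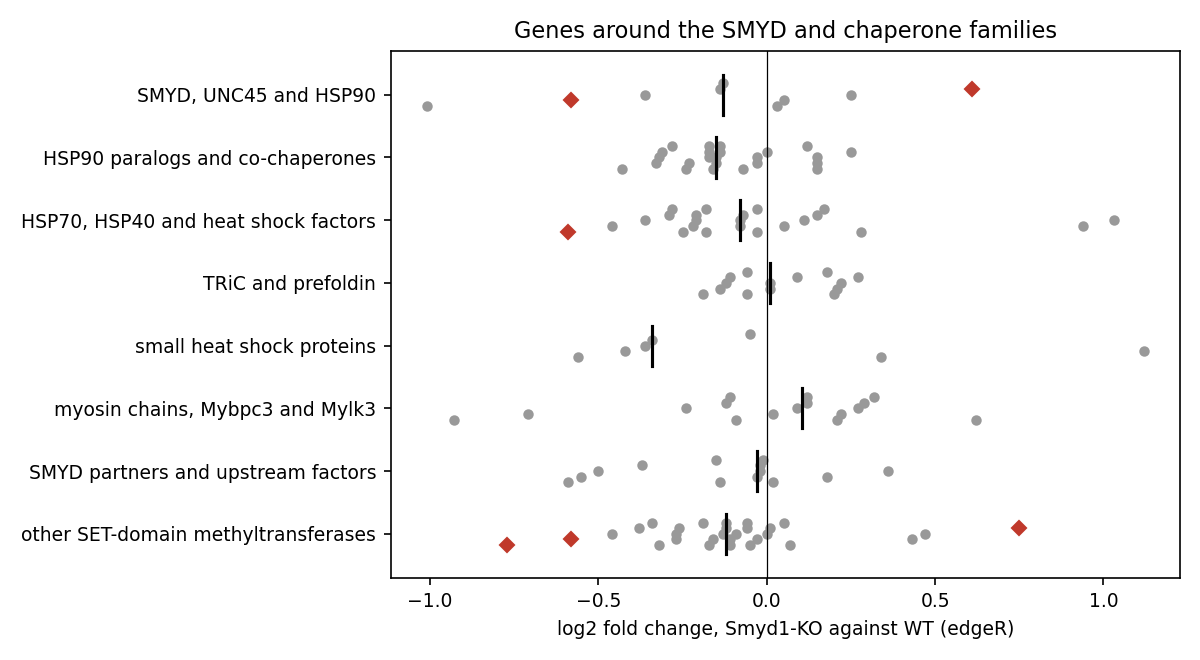
Log2 fold change, *Smyd1-KO* against WT (x axis), of each tested gene of the 9 genes described and of 7 lists around them. Each point is a gene, red diamonds are differentially expressed genes, and black bars are list medians, which run from -0.34 (small heat shock proteins) to 0.11 (myosin chains, *Mybpc3* and *Mylk3*).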

How the data were processed

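RNA-seq was analysed for 3 *Smyd1-KO* and 3 WT hearts at E9.5, each from a separate embryo, so *P*-values measure the spread between individual hearts. The authors made raw counts per gene from paired-end, poly A-selected reads aligned to mm10 with STAR, and deposited them as whole numbers without normalization. The counting tool, annotation release and strand setting are not given in the sources used here. A table of the same counts that the authors divided by DESeq2 size factors was not used.

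Genotypes were compared with edgeR 4.0.16 under R 4.3.3 (filterByExpr, TMM, quasi-likelihood test, Benjamini-Hochberg adjustment over 19372 genes). Log2 CPM has a prior count of 2. Intervals have a level of 95%. DESeq2 1.42.0 was an alternative. Positions and merged exon lengths came from GENCODE for GRCm38, near-identical copies from BLAST 2.17.0 (at least 90% identity over 200 bases). Ratios were tested by exact permutation in scipy 1.17.1, and plots drawn with matplotlib 3.10.9. The test was tried on simulated data with known changes.

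The 9 genes and the lists were chosen with earlier results of these data known. Named from each list were the called genes, at most the 4 with the smallest *P*, the 1 smallest where none was called, and genes tied by role to the 9. *Hspa1a* and *Hspa1b* were named after their values had been seen. Alternatives were RLE and upper-quartile normalization, no filter, at least 10 counts in every heart, no mitochondrial or haemoglobin genes, robust estimation, no fold limit, a replicate block, and each heart left out. Marker ratios without *Myh6* and *Myh7* were added after the data had been seen.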

Additional observations from a re-analysis of the deposited data

How the results depend on the processing

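*Smyd3* and *Unc45a* were the 2 genes called of the 9 under RLE or upper-quartile normalization, without the filter, with at least 10 counts in every heart, without mitochondrial and haemoglobin genes, with robust estimation and with no fold limit. DESeq2 called *Smyd1* too (log2 fold change -1.0) and 1749 genes in all, against 830 for edgeR, and the cause was not tested. The hearts come from different embryos, and whether equal replicate numbers share a litter or batch is not given in the sources used here. The deviations of same-numbered hearts correlated at -0.216, -0.054 and -0.182, and no heart correlated best with its own number. With 3 hearts per genotype these correlations cannot exclude such a pairing. With the replicate number as a block, edgeR called 59 genes (3616 at an unadjusted *P* under 0.05) and 0 of the 9 (3 at an unadjusted *P* under 0.05), with *Smyd3* at 0.61 (adjusted *P*=0.147), *Unc45a* at -0.58 (adjusted *P*=0.14) and *Smyd1* at -1.06 (adjusted *P*=0.219); this fit has fewer residual degrees of freedom. With 1 heart left out, 97 to 1256 genes and 0 to 2 of the 9 were called. The log2 fold changes then ran from -1.20 to -0.73 for *Smyd1*, -0.07 to 0.16 for *Smyd2* (-0.02, -0.01 and -0.07 without *Smyd1-KO* heart 2, *Smyd1-KO* heart 3 or WT heart 3), 0.59 to 0.65 for *Smyd3*, 0.04 to 0.09 for *Smyd4*, -0.18 to -0.11 for *Smyd5*, -0.65 to -0.50 for *Unc45a*, -0.58 to -0.04 for *Unc45b*, -0.22 to -0.06 for *Hsp90aa1* and 0.21 to 0.31 for *Hsp90ab1*. The log2 ratio difference of *Unc45b* to *Unc45a* ran from -0.13 to 0.61, with -0.08, -0.13 and -0.07 without the same 3 hearts. Without *Myh6* and *Myh7* among the markers the ratio differences were -0.83 for *Smyd1* and -0.21 for *Unc45b*. Of 202 values under an alternative, 170 kept their direction and side of the threshold or stayed within 1.5 times a count. Of the rest, 23 were weaker, 3 stronger and 6 reversed. The setting with no fold limit used the main fit itself, so its log2 fold changes could not differ. Depth did not limit the 9 genes, each with at least 591 counts per heart, and 3 hearts per genotype did limit the ratios, whose exact *P* cannot go below 0.1.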

Other observations

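Of the 16 genes tested within 500 kb of *Smyd1*, 2 were called (12.5%, against 4.28% of all tested genes). *Kdm3a*, a histone H3 lysine demethylase (chromosome 6, 71588972 to 71632990), was upregulated from 97.3 to 234 CPM on average (log2 fold change 1.26, SE 0.122, edgeR adjusted *P*=0.00407), and it stayed called whichever heart was left out (1.17 to 1.35). The other was the processed pseudogene *Rpl34-ps1* (0.54, edgeR adjusted *P*=0.0318), which was called in 0 of the 6 fits without a heart (0.46 to 0.61, adjusted *P* of 0.0414 to 0.125). How reads that match both *Rpl34-ps1* and other ribosomal protein copies were counted is not given. *Krcc1*, which lies upstream of the RefSeq start of *Smyd1* on the opposite strand, inside the wider span that GENCODE gives *Smyd1*, and shares no exon base with it, averaged 45.5 CPM (*Smyd1-KO*) and 42.9 CPM (WT, log2 fold change 0.09, edgeR adjusted *P*=0.776). These neighbours were named after their values had been seen.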
